A study of Homo sapiens with 13 samples.

Results

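The regions described here are strong distal accessible sites of T98G cells whose ATAC-seq signal was lower in M-phase than in G1. They were chosen by their own values, as peaks more than 2 kb from any annotated transcription start site (TSS), with a G1 mean of at least 40 scaled reads, a log2((M-phase mean + 8)/(G1 mean + 8)) of -1 or less, and every M-phase library below every G1 library. The rule found 1831 peaks, which is 17.5% of the 10451 strong distal peaks (the distal peaks that reach the G1 level), among 96278 distal peaks and 129347 peaks in all. They are called M-low peaks here. Because the fall selected them, their levels in the 2 phases are given as a description and carry no test. T98G is an established human glioblastoma cell line. The G1 group was 3 libraries from cells starved of serum for 72 h, and the M-phase group was 3 data columns from cells starved for 48 h, then given 20% serum together with nocodazole, an inhibitor of microtubule assembly, for 36 h and shaken off the dish. The labels list 6 M-phase runs, 3 numbered replicates on each of a HiSeq and a NextSeq machine, whereas every G1 library is labelled HiSeq. Which of these runs each M-phase column holds is not stated, so the sequencer may or may not differ between the groups. Serum history, nocodazole and cell cycle phase, and possibly the sequencer, differ together between the groups and cannot be told apart. The labels do not say that the replicates came from separate cultures, so p-values below cover the spread between these libraries, which may be technical.

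ATAC-seq reads out where a transposase can insert into DNA, and a peak marks a stretch from which nucleosomes are displaced or loosened. Accessible sites far from start sites are often enhancers, which bind sequence-specific transcription factors and act on promoters that may lie at a considerable distance. As cells enter mitosis, chromosomes condense and most transcription stops, and factors differ in how far they stay on the chromosomes. The comparison of starved G1 cells with cells held in mitosis asks which distal sites keep their open state.

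The central 200 bp of 7 of these peaks are printed here, from the plus strand of GRCh37 (hg19), to show what the sites look like at the sequence level. The first pair are the largest falls, and the others are, in turn, the largest remaining falls whose central window holds a FOX (TGTTTAC), RUNX (TGTGGTT), TEAD (CATTCCA or CATTCCT), CEBP or AP1 (TGACTCA or TGAGTCA) consensus. These 5 were picked after their values were seen. Capitals mark every match, on either strand, to the consensus motifs searched, and in the first window a glucocorticoid receptor consensus runs into a CEBP consensus with a shared base.
chr3:162242977-162243176: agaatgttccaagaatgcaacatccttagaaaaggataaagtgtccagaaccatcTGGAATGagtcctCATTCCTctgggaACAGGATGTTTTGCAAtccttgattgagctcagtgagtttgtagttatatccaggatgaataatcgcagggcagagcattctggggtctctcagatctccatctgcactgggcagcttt
chr2:145915707-145915906: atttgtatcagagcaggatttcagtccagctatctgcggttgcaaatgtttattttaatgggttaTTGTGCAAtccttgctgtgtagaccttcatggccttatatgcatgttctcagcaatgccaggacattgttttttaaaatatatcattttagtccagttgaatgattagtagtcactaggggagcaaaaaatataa
chr5:169372947-169373146: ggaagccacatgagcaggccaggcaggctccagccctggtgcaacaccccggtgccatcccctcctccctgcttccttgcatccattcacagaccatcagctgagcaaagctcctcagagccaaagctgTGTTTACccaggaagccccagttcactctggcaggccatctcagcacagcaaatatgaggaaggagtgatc
chr3:8631726-8631925: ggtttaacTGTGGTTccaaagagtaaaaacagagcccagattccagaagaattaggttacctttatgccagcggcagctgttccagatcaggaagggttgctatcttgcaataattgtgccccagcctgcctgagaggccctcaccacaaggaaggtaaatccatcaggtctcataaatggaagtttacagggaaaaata
chr1:76802861-76803060: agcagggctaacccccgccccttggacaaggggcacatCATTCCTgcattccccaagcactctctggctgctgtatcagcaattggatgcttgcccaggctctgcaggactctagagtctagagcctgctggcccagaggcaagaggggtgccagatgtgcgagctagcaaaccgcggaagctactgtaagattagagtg
chr1:171111288-171111487: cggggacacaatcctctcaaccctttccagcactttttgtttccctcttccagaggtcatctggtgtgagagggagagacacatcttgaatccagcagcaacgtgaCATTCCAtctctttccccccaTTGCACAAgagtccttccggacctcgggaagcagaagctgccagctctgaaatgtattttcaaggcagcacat
chrX:20566069-20566268: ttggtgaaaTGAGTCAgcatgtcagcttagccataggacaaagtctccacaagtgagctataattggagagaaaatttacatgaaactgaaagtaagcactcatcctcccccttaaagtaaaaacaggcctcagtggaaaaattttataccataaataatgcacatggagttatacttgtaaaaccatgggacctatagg

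The first window, on chromosome 3, lies outside annotated genes and holds a TEAD consensus on each strand. The second lies in an intron of TEX41, a long noncoding RNA gene beside ZEB2, which encodes a transcription factor of the epithelial to mesenchymal transition. The FOX window lies in introns of DOCK2, an activator of the GTPase RAC, and of INSYN2B, whose TSS, at 34.2 kb, is the nearest protein-coding one. The RUNX window lies in an intron of the antisense RNA gene LMCD1-AS1. The TEAD window lies in an intron of ST6GALNAC3, a sialyltransferase gene, the CEBP window in an intron of the pseudogene FMO6P, and the AP1 window outside genes on the X chromosome. The FOX peak, at chr5:169372835-169373257, stood at 105.4, 91.4 and 111 scaled reads in the G1 libraries and at 12.4, 7.4 and 23.1 in the M-phase libraries.

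The signal of these peaks was reduced rather than absent in the M-phase libraries. By DNA content, the paper describes its synchronized populations as enriched for a stage, not pure. The part that cells of other stages play in the remaining signal was not tested. Their median G1 mean was 66.3 scaled reads and their median M-phase mean was 20.5, with a median log2 change of -1.34. The M-phase mean was below 10 in 131 peaks (7.15%) and below 20 in 874 (47.7%), and 3 peaks had a library without any read. In 1743 of them (95.2%) the M-phase mean still exceeded 9.0, the median M-phase level of all distal peaks. A log2 change of -1.5 or less was reached by 574 peaks (31.3%) and one of -2 or less by 99 (5.41%).

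**Figure D1:**
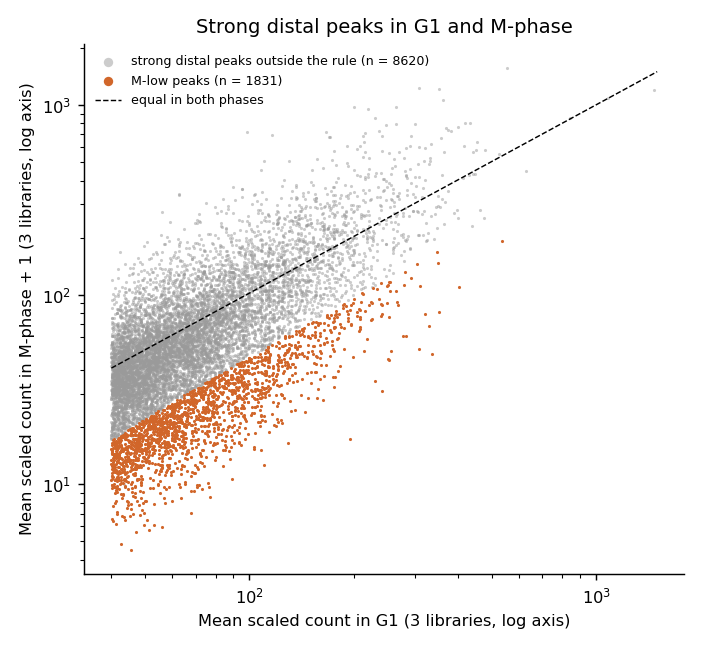
Mean scaled count in M-phase plus 1 against the mean in G1, each over 3 libraries and on log axes, for the 10451 strong distal peaks. The 1831 peaks of the rule (orange) lie below the others because the rule places them there, and most of them keep an M-phase mean between 10 and 100.

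The 3 M-phase libraries gave alike medians over these peaks, 21.0, 21.0 and 20.2, but the G1 libraries did not. The medians in G1 were 57.7, 57.0 and 85.0, and G1 replicate 3 was the highest G1 library in 1590 peaks (86.8%), compared with 60.2% of the other strong distal peaks. The log2 ratio of replicate 3 to the mean of the other G1 libraries had a median of 0.52 in the peaks of the rule, 0.26 in the other strong distal peaks and 0.03 in all distal peaks. Without that library the median log2 change of the 1831 peaks was -1.15 and 1301 of them stayed at -1 or less. Applied to the remaining 5 libraries, the whole rule found 1190 peaks, of which 1128 were among the 1831. The total signal in peaks was 4191845 to 5092426 scaled reads in G1 and 5475345 to 6000423 in M-phase. The peaks of the rule held 3.03, 3.06 and 3.79% of that total in the G1 libraries and 0.884, 0.832 and 0.801% in the M-phase libraries. Among marker genes of the line, 7 of 8, including VIM and CD44, had a promoter peak with a G1 mean of at least 40, while none of 4 blood, 2 liver or 3 oligodendrocyte genes had one. The exceptions were NES, with no promoter peak, and EPCAM, SYT1 and SNAP25, of 4 epithelial and 3 neuronal genes, which had one.

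The thresholds cut through a continuous range of values. Of the 1846 strong distal peaks with a log2 change of -1 or less, 15 failed only because an M-phase library reached a G1 library. Over all 129347 peaks, 13.6% had every M-phase library below every G1 library, and 3.32% also had a log2 change of -1 or less. A further 1707 peaks failed only the G1 mean, 448 failed only the distance to a TSS and 2119 failed only the log2 change. Just inside the limit on the change was a peak in SPEF2, with G1 and M-phase means of 50.4 and 21.2, and just outside it was one in PLEK, with means of 48.6 and 20.3. Just inside the G1 minimum was a peak near BECN2 with means of 40 and 9.47, and just outside it one in EYA1 with 39.9 and 8.30. Just past 2 kb was an intronic peak of TOGARAM2, 2.02 kb from a TSS, with means of 73.1 and 20.7, and just short of it one near ISM1, 1.98 kb from a TSS, with 69.2 and 28.6.

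The 12 largest falls were spread over 8 chromosomes, with 4 on chromosome 1. The largest was chr3:162242673-162243480, 1028 kb from the nearest protein-coding TSS, that of OTOL1, which encodes a protein of the inner ear otoconia. It measured 134.2, 165.6 and 286 scaled reads in G1 and 14.8, 22.7 and 11.5 in M-phase, a log2 change of -3.06. The highest M-phase library, at 22.7, was far under the lowest G1 library, at 134.2, where the rule requires only that it be lower. The peak in TEX41, chr2:145915290-145916323, measured 247.5, 185.9 and 289 in G1 and 29.7, 43.3 and 17.3 in M-phase (log2 change -2.71), and a second, smaller member of the same gene had means of 42.5 and 9.57. ZEB2 is the nearest protein-coding TSS to both, at 637 and 587 kb.

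The next, chr1:48959667-48960557, lies 21.8 kb from the TSS of SPATA6, a gene of sperm tail formation, and was among the strongest of the set. It measured 314.2, 264.8 and 432 in G1 and 46.6, 55.6 and 40.4 in M-phase (log2 change -2.64). A comparable level was seen at chr1:171110523-171112252 in FMO6P, a pseudogene of the flavin monooxygenases, with 266.4, 264.8 and 395 in G1 and 55.6, 42.9 and 54.4 in M-phase (log2 change -2.43). The peak chr1:83973904-83975036, 373 kb from TTLL7, a tubulin glutamylase gene, gave 223.7, 186.7 and 279 in G1 and 38.3, 30.5 and 33.7 in M-phase (log2 change -2.50). In these 3 peaks the M-phase signal was still above that of most distal sites. The other falls started from G1 means between 68.0 and 129 and ended at M-phase means between 6.03 and 15.6.

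Among those were intronic sites of MYRFL, of ST6GALNAC3, of SLC27A6, a fatty acid transporter gene, and of SMOC1, which encodes a secreted matrix-associated protein. The ST6GALNAC3 peak went from 44.7, 59.4 and 100 in G1 to 13.6, 4.5 and 0.0 in M-phase and is 1 of the 3 peaks with an empty library. The SMOC1 peak went from 54.7, 59.4 and 115 to 10.3, 9.1 and 6.7 (log2 change -2.34). At both, G1 replicate 3 was well above the other G1 libraries. The phases did not overlap, which the rule requires of every member.

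**Figure D2:**
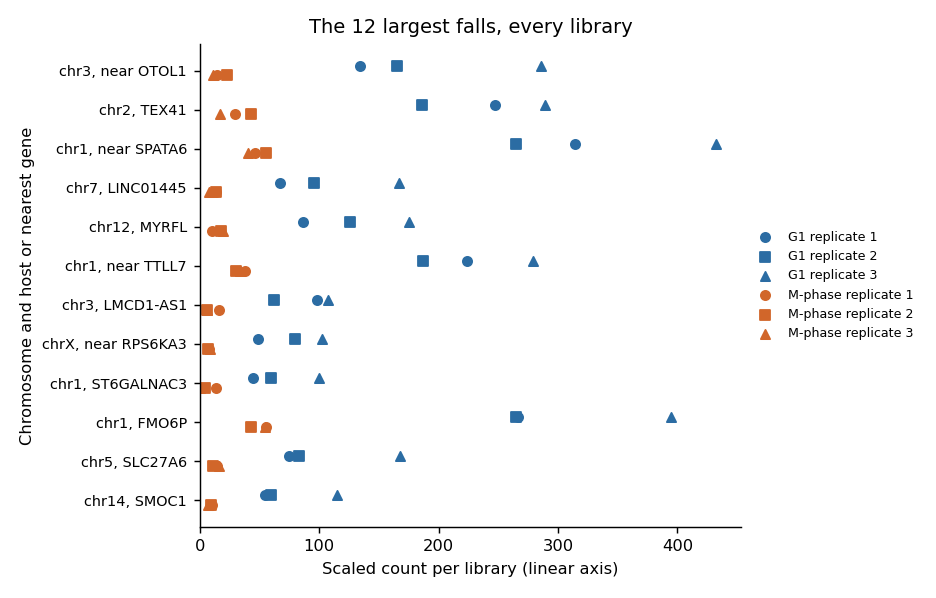
Scaled counts of every library (linear axis) at the 12 peaks with the most negative log2 change, ordered from top to bottom and named by chromosome and host or nearest gene. G1 libraries are blue and M-phase libraries orange, with 1 symbol per replicate, and the M-phase points stay at or below 55.6.

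M-low peaks were not spread evenly over the chromosomes. Their share of the strong distal peaks was 36.0% on chromosome 4 (111 of 308), 34.8% on the X chromosome (46 of 132) and 25.8% on chromosome 3 (152 of 590), against 17.5% over all. It was 11.9% on chromosome 7 (137 of 1147), 4.5% on chromosome 17 (17 of 378), 2.7% on chromosome 19 (5 of 185) and 1.33% on chromosome 22 (3 of 225). Across the 22 chromosomes with at least 100 strong distal peaks, the share went with the median GC content of those peaks (Pearson r -0.79, Spearman coefficient -0.77), a description over points that share all libraries. Within the peaks of 40 to 50% GC the spread between chromosomes remained, from 51.8% on the X chromosome (29 of 56) and 40.8% on chromosome 4 (58 of 142) to 10.7% on chromosome 20 (19 of 178) and 2.25% on chromosome 17 (2 of 89).

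GC content and CpG number also differed between these peaks and other strong distal peaks, with overlapping ranges. The median GC content of the central 200 bp was 47.0% in the peaks of the rule, 51.0% in the others and 49.0% in all distal peaks. The median CpG number was 2, 3 and 2, so on CpG number the peaks of the rule were like distal peaks in general. The share that met the rule was 27.6% at 35 to 40% GC, 15.1% at 50 to 55% GC and 5.62% above 60% GC. It was 26.4% for windows without a CpG and 8.25% for those with 5 or more. The peaks of the rule were also narrower, with a median width of 596 bp against 866 bp, at similar G1 means (medians 66.3 and 61.7). No values of GC bias per library were computed, and the part that library GC bias plays in these shares was not tested.

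**Figure D3:**
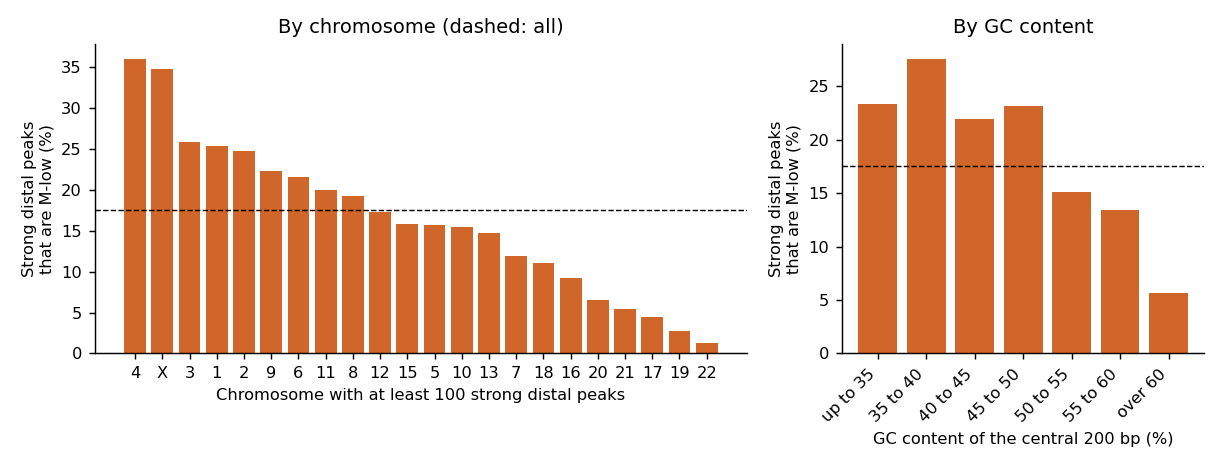
Percentage of strong distal peaks that met the rule, by chromosome (left) and by GC content of the central 200 bp (right), with a dashed line at 17.5%, the value over all. The bars fall from 36.0% on chromosome 4 to 1.33% on chromosome 22, and from 27.6% at 35 to 40% GC to 5.62% above 60% GC.

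With respect to genes, 729 of the peaks (39.8%) lay in introns of protein-coding genes, 741 (40.5%) outside annotated genes and 267 (14.6%) in introns of noncoding genes. Coding exons held 45 and other exons 49. These proportions were close to those of the other strong distal peaks, of which 37.9% were in protein-coding introns and 41.6% outside genes. The median distance to the nearest protein-coding TSS was 42.8 kb, against 30.2 kb for the others and 41.7 kb for all distal peaks. The share that met the rule went from 13.7% at 2 to 10 kb to 21.7% at 200 to 500 kb. The share was higher beyond 100 kb than within it in each of 5 classes of GC content, from 28.8 against 25.2% at up to 40% GC to 15.4 against 14.9% at 50 to 55% and 10.3 against 8.89% above 55%.

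The central windows of the M-low peaks held several consensus motifs more often than those of the other strong distal peaks. RUNX proteins, which act with the partner CBFB, have the consensus TGTGGTT, which was present in 13.7% of the 1831 windows (95% Wilson interval, counting error only, 12.2 to 15.4%), in 6.59% of the 8620 other strong distal windows and in 5.22% of all distal windows. The forkhead consensus TGTTTAC was present in 7.32, 3.65 and 3.18%. The consensus of TEAD, the DNA-binding partner of YAP, was present in 17.3, 10.3 and 9.47%, and that of the CEBP family in 16.0, 9.04 and 8.68%. The AP1 consensus, bound by FOS and JUN proteins, was in 17.7% of the M-low windows and 18.9% of the others, both above the 9.72% of all distal windows. The SOX consensus (ACAATGG or ACAAAGG) was in 8.03 and 6.01%, the glucocorticoid receptor consensus in 6.28 and 5.38%, and the CTCF consensus in 1.64 and 2.34%. The ETS, NFI and CArG box consensus sequences were rare, at 0.437, 0.0 and 1.37% of the M-low windows. Over the whole peak, where M-low peaks are narrower, RUNX was in 30.5% of them and 23.7% of the other strong distal peaks and CEBP in 39.7 and 33.6%, but FOX (15.8 and 14.1%) and TEAD (38.6 and 36.2%) came close together. There AP1 was in fewer M-low peaks (35 against 47.5%), and the order turned for SOX (22.8 against 25.2%) and the glucocorticoid receptor (19.7 against 23%). Matches on either strand were counted, and a match is a string of letters, not a bound site.

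Read the other way, 30.6% of the 819 strong distal peaks with a RUNX consensus met the rule, against 16.4% of those without. The values with and without the motif were 29.8 and 17.0% for FOX, 27.3 and 16.4% for CEBP, 26.3 and 16.4% for TEAD, and 16.6 and 17.7% for AP1. The differences for RUNX, FOX, CEBP and TEAD had the same direction in each of 5 classes of GC content. For RUNX they were 36.2 against 25.2% at up to 40% GC and 20.0 against 8.70% above 55% GC. For AP1 the direction varied, with 28.1 against 26% at up to 40% GC and 17.7 against 23.4% at 40 to 45% GC. Of the 1831 windows, 994 (54.3%) held at least 1 of these 5 motifs, against 38.7% of the others.

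**Figure D4:**
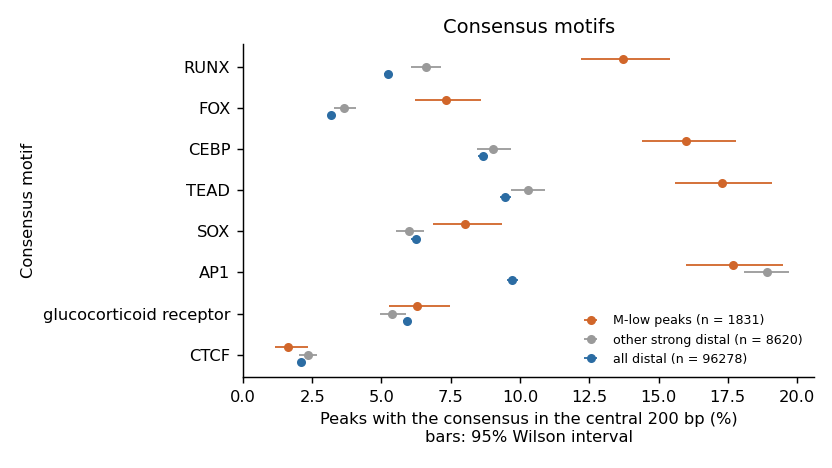
Percentage of peaks with each consensus in the central 200 bp, with 95% Wilson intervals as bars, for the 1831 M-low peaks (orange), the 8620 other strong distal peaks (grey) and all 96278 distal peaks (blue). The orange points lie to the right of the grey ones for RUNX, FOX, CEBP, TEAD, SOX and the glucocorticoid receptor. For SOX and the glucocorticoid receptor this was not so over the whole peak, and the intervals of the latter overlap. The AP1 points of both strong sets lie near 18%.

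The M-low peaks lay nearer to each other than the other strong distal peaks lay to them. Another M-low peak was found within 100 kb of 525 of them (28.7%), while 17.4% of the other strong distal peaks had an M-low peak within that distance. Linking peaks at 100 kb gave 1306 single peaks and 224 groups, of which 56 held at least 3 peaks, 13 at least 4 and 2 at least 5.

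The largest group held 9 peaks over 338 kb at chr11:15686923-16024746 beside SOX6, which encodes a SOX-family transcription factor of glial and cartilage development. They were 9 of the 10 strong distal peaks in that stretch. The stretch of each group given here ends at its outermost M-low peaks, which by itself raises such shares. Of all strong distal peaks with SOX6 as host or nearest gene, 9 of 13 met the rule. The 9 G1 means were 42.9 to 204 and the log2 changes -1.45 to -1.09, where the rule itself allows none above -1. Their median of -1.29 was near the -1.34 of all M-low peaks. The strongest, in a SOX6 intron, measured 174.0, 161.7 and 277 in G1 and 75.4, 91.9 and 73.6 in M-phase. A second member lay in the gene, and the other 7 lay 122 to 349 kb from the nearest SOX6 TSS, outside the gene's span and in introns of unnamed noncoding genes or between genes.

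The next group held 7 of 9 strong distal peaks over 235 kb in introns of CNIH3, which encodes an auxiliary protein of AMPA-type glutamate receptors. The member at chr1:224780499-224781170 measured 116.3, 95.3 and 116 in G1 and 16.1, 26 and 20.2 in M-phase (log2 change -2.03), the deepest fall of the group. The strongest member, chr1:224690373-224691863, measured 329.1, 282.0 and 435 in G1 and 150.0, 156.6 and 130.4 in M-phase (log2 change -1.21). It thus kept more signal in M-phase than most strong distal peaks have in G1.

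Of the groups of 4, the 3 with the highest summed G1 means are given. The first held all 4 strong distal peaks in 44.4 kb at chr1:210424252-210468662, between SERTAD4 and HHAT, the acyltransferase of hedgehog proteins. Their log2 changes were -2.04 to -1.36. The next held 4 of 5 strong distal peaks over 211 kb at SERPINI1, which encodes neuroserpin, and GOLIM4, which encodes a Golgi membrane protein. A member there overlaps a coding exon of GOLIM4 and went from 147.1, 110.9 and 234 to 35, 31.3 and 42.8 (log2 change -1.95). The last held 4 of 5 over 170 kb in LINC01344, between ZNF648 and GLUL, the glutamine synthetase gene, with changes of -1.79 to -1.05.

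Protein-coding genes that contained M-low peaks were long. Of 2697 protein-coding genes with a strong distal peak in their span, 666 held at least 1 M-low peak, 129 at least 2 and 31 at least 3. Their median length was 195 kb, against 103 kb for genes with strong distal peaks but no M-low one, and 407 kb for the 31 genes. A longer gene has more room for peaks of either kind. The share of intragenic strong distal peaks that met the rule went from 10.2% in genes under 50 kb to 22.3% in genes of 500 kb or more. These shares were not split by GC content, and the part that GC content plays in them was not tested.

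CNIH3 led the 31 genes with 7 M-low peaks of 10 strong distal peaks, followed by IQCJ-SCHIP1 with 5 of 9. SMYD3, a lysine methyltransferase gene, had 4 of 4 and a median log2 change of -1.31. AGBL4, a carboxypeptidase that trims glutamates from tubulin, had 4 of 6, and EFNA5, which encodes the repulsive guidance ligand ephrin-A5, had 4 of 7. TENM2, a teneurin adhesion receptor gene, had 4 of 9, and its relative TENM4 had 3 of 5. FGGY, a carbohydrate kinase gene, had 4 of 10 with the deepest median of the 31, -1.95. All 3 strong distal peaks met the rule in each of ANKS1B, a postsynaptic scaffold gene, DHRS9, a retinol dehydrogenase gene, HECW2, a ubiquitin ligase gene, PKNOX2, a homeobox gene, PRUNE2, SHLD1, a shieldin subunit gene of DNA break repair, and ZCCHC24.

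Other genes with 3 M-low peaks included MAP2, a neuronal microtubule-binding protein gene (3 of 5), DAB1, the adaptor of reelin signalling (3 of 6), ROR1, a receptor for WNT5A (3 of 6), KCNS3, a potassium channel subunit gene (3 of 4), and the transcription factor genes ZFPM2 (3 of 8) and ZFHX3 (3 of 12). At the low end was PDE11A, which encodes a phosphodiesterase of cAMP and cGMP, with 3 of 17. Among noncoding genes, LINC01344, LMCD1-AS1 and LINC00578 each held 4.

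For gene functions, each strong distal peak was assigned to its host gene or, if outside protein-coding genes, to the nearest protein-coding TSS, and 27 gene lists were counted. The shares are descriptions to be read beside the 17.5% of all strong distal peaks. The highest was that of nuclear receptors, at 26.8% (19 of 71 peaks, in 13 genes), followed by axon guidance at 25.4% (46 of 181, in 23 genes), neural and glial identity factors at 23.1% (31 of 134), cadherins and other adhesion genes at 22.3% (43 of 193) and WNT signalling at 22.2% (16 of 72). The nuclear receptor peaks included 3 of 4 assigned to NR3C2, the mineralocorticoid receptor gene, and 2 of 7 assigned to RARB, a retinoic acid receptor gene. An assigned peak can lie far from its gene, as with NR3C2 peaks 343 and 356 kb from its TSS. An NR3C2 peak, chr4:149721765-149722354, went from 52.7, 59.4 and 99 to 7.4, 12.4 and 6.3 (log2 change -2.23), and the RARB intronic peak from 102.4, 85.9 and 145 to 20.2, 21.0 and 20.7 (log2 change -2.06). No library of one phase reached a library of the other at either peak, which the rule requires of every member.

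The axon guidance peaks included 5 of 13 assigned to SEMA3C and 4 of 6 to SEMA6A, both semaphorin genes. They also included 5 of 14 assigned to EFNA5, with a peak 525 kb from its TSS, and 3 of 6 to EFNB2, another ephrin gene. The neural and glial list was led by SOX6 with 9 of 13 and SOX11 with 4 of 7. In the middle were receptor tyrosine kinases at 18.2% (14 of 77), MAPK pathway genes at 19.3% (16 of 83), TEAD, YAP and target genes at 20.0% (11 of 55), ion channels at 18.8% (39 of 207), solute carriers at 20.3% (46 of 227), cAMP and cGMP signalling genes at 21.0% (22 of 105), insulin and PI3K genes at 18.2% (8 of 44), cell cycle genes at 18% (20 of 111) and chromatin regulators at 16.7% (19 of 114). The insulin list includes IGFBP7, which encodes an insulin-like growth factor binding protein, with 4 of 5.

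Lower shares were found for RUNX factors and cofactors, 6.25% (1 of 16), zinc finger ZNF genes, 8.14% (18 of 221), integrins and focal adhesion, 11.0% (10 of 91), and actin cytoskeleton, 11.4% (14 of 123). AP-1 and immediate-early genes had 12.2% (5 of 41), FOXO and quiescence targets 12.2% (5 of 41), phosphatases of the PTP family 12.2% (9 of 74), forkhead factors 12.5% (8 of 64), mesenchymal transcription factors 12.8% (6 of 47), TGF-beta and BMP signalling 14.5% (16 of 110), extracellular matrix 15.3% (35 of 229) and NF-kB and cytokine genes 15.9% (14 of 88). The shares of the short lists move by several points with a single peak.

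Distal peaks outside the rule were tested to ask whether the surroundings of the M-low peaks moved in the same direction. In limma on log2(scaled reads + 8) over 73121 peaks, 13.1% of all peaks passed an adjusted p of 0.05 as lower in M-phase and 14.3% as higher, and among distal peaks outside the rule 12.2% were lower and 6.41% higher. Within 50 kb of an M-low peak, 826 of 4059 such distal peaks were lower (20.3%) and 149 were higher (3.67%). The share of lower peaks was 24.5% within 10 kb, 16.0% at 50 to 100 kb and 10.1% beyond 500 kb. Much of this came from peaks that missed the rule by 1 criterion, of which 83.0% (470 of 566) were lower, as their selection implies. Among those that failed more than 1 criterion, 356 of 3493 (10.2%) were lower and 4.27% higher within 50 kb, against 2413 of 39318 (6.14%) lower and 7.21% higher further away. In these peaks the share of lower calls was 12% within 10 kb and 5.50% beyond 500 kb, at alike median levels of 9.24 and 8.63 scaled reads. With totals in peaks made equal, 1445 of the 4059 distal peaks outside the rule within 50 kb were lower (35.6%) and 69 were higher. The lower share then also rose elsewhere, to 23.5% further away and 24.7% of all peaks. Without G1 replicate 3, 549 of 4744 were lower within 50 kb (11.6%), against 6.94% further away and 8.85% of all peaks.

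The promoter peaks of the host genes were the measure most separate from the rule, since promoters were excluded from it. Among 708 host promoter peaks, 91 fell in M-phase (12.9%) and 171 rose (24.2%), with a median log2 change of 0.06. Of all 13131 promoter peaks of protein-coding genes, 5.29% were lower and 47.1% higher, with a median of 0.45. The lower share was 11.4% in hosts of 1 M-low peak, 15.7% in hosts of 2 and 23.8% in hosts of at least 3 (10 of 42, with 6 higher), and it was 5.16% in genes with strong distal peaks but no M-low one. Host promoters had a lower median level than all coding promoters, 132 against 165 scaled reads, and the sets were not matched for level, length or GC content. The counts depend on the scaling. Lower and higher calls among host promoters numbered 160 and 137 with TMM factors, 267 and 53 with loess normalization, and 251 and 92 with equal totals in peaks, a scaling that moved the median of all peaks from 0.02 to -0.23. The lower share of hosts was above that of all coding promoters in each, at 22.6 against 8.53%, 37.7 against 17.7% and 35.5 against 16.2%.

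**Figure D5:**
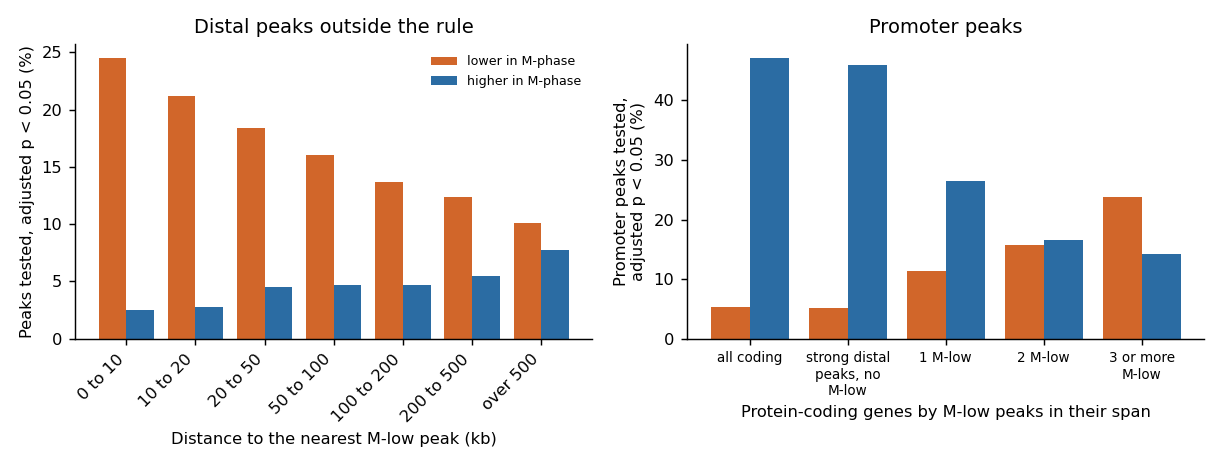
Percentage of tested peaks with an adjusted p (limma, Benjamini-Hochberg) under 0.05 as lower (orange) or higher (blue) in M-phase, for distal peaks outside the rule by distance from the nearest M-low peak (left) and for promoter peaks of protein-coding genes by the number of M-low peaks in the gene (right). The orange bars go from 24.5% within 10 kb to 10.1% beyond 500 kb, which includes peaks that missed the rule by 1 criterion, and from 5.29% of all coding promoters to 23.8% in hosts of at least 3.

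Among host promoters the largest fall was that of CHRNA1, a muscle nicotinic receptor subunit gene. It measured 89.5, 98.4 and 138 in G1 and 27.2, 14.4 and 26 in M-phase (limma log2 change -1.94 ± 0.25 (SE), adjusted p = 5.91e-10). SELENOP, the plasma selenium carrier gene, went from 38.8, 32.8 and 45 to 3.7, 9.9 and 1.9 (-1.87 ± 0.29, limma adjusted p = 2.07e-07). The PDE11A promoter went from 461.3, 402.3 and 623 to 163.1, 162.3 and 192.5 (-1.46 ± 0.18, limma adjusted p = 1.51e-10). In all 3 the groups were clearly apart. An internal promoter of MAPK10, a JNK kinase gene, fell by 1.71 on the log2 scale, while another of its promoters, at chr4:87514951-87516697, rose from 231.6, 220.3 and 360 to 467.2, 480.0 and 520.6 (limma log2 change 0.87, adjusted p = 3.91e-05, but 0.13 and 0.468 with loess normalization).

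Of the genes with 3 M-low peaks, ANKS1B (log2 change -1.05, limma adjusted p = 4.82e-05), PRUNE2 (-0.97, 0.000246) and SH3TC2 (-1.0, 6.13e-05) also had a lower promoter peak. A promoter peak rose in BBS9 (0.74, limma adjusted p = 0.000686), ASAP1 (0.67, 0.0006) and ZCCHC24 (0.50, 0.0186), but with loess normalization these gave 0.17, -0.22 and -0.26 and none passed. At EFNA5 one promoter was lower (-1.09, limma adjusted p = 0.000141) and one higher (0.46, 0.0203), the latter -0.43 with an adjusted p of 0.000831 after loess normalization. At CNIH3 the promoter peaks did not all move together. The peak at the upstream start, chr1:224620866-224623246, measured 229.7, 198.4 and 282 in G1 and 381.9, 491.6 and 425.8 in M-phase (limma log2 change 0.86, adjusted p = 5.4e-05, but 0.17 and 0.332 with loess normalization). An internal promoter, chr1:224803582-224804238, measured 91.5, 79.7 and 83 and then 30.1, 33.4 and 30.3 (-1.24, limma adjusted p = 2.03e-05). Of the other CNIH3 promoter peaks, chr1:224716672-224717207 was lower (-0.8, limma adjusted p = 0.013) and chr1:224752370-224753679 did not pass (-0.38, 0.192). The SOX6 promoters did not pass the test, at 0.06 (limma adjusted p = 0.852) and -0.37 (0.145), although the latter passed in 4 of the alternative fits with values of -0.93 to -0.50.

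In other hosts an M-low distal peak lay in a gene with a promoter peak that rose. The stronger promoter peak of RUNX2, a transcription factor of bone formation, went from 190.9, 167.2 and 165 to 500.9, 515.9 and 527.4 (log2 change 1.52 ± 0.17 (SE), limma adjusted p = 1.24e-11), while its distal member went from 30.8, 41.4 and 59 to 13.6, 14.0 and 11.5. A weak second RUNX2 promoter peak was lower, at 14.9, 24.2 and 20 in G1 and 2.9, 5.4 and 12 in M-phase (log2 change -0.94, limma adjusted p = 0.00888). INPP5A, an inositol phosphatase gene, went from 269.4, 219.5 and 295 to 819.4, 945.2 and 805.0 (1.69 ± 0.16, limma adjusted p = 2.14e-14). RAB11A, a GTPase of recycling endosomes, EXT1, a heparan sulphate polymerase gene, and MKLN1 followed, with limma log2 changes of 1.51, 1.48 and 1.45. RB1, the retinoblastoma tumour suppressor gene, had a promoter change of 0.97 (limma adjusted p = 2.09e-05). A member within its annotated span went from 33.8, 29.7 and 61 to 11.5, 7.0 and 5.8. That member also lies in the noncoding gene LINC00462, and its nearest protein-coding TSS is that of RCBTB2, at 52.3 kb.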

How the data were processed

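ATAC-seq was measured in T98G cells in G1 and M-phase. Per the methods and labels, the authors trimmed adapters with cutadapt, mapped to hg19 with Bowtie (through QuasR, keeping reads with a few equally good placements), dropped mitochondrial reads with SAMtools, ran MACS2 in broad mode on pooled replicates and united the peaks of both phases. The deposited signal values are reads per peak and library, scaled by the authors to the smallest library. The file's log2 columns hold the authors' comparison and were not used, and the chromatin fraction and input samples were not analysed here. Distances and hosts came from the GENCODE v44lift37 annotation of GRCh37, of which all transcript starts were used.

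The M-low peaks and gene lists were chosen with earlier results of these data known, and the motif pattern had been seen before. Named peaks were the 12 largest falls, the edges of the rule, the 5 largest clusters (single linkage, 100 kb, ties ordered by summed G1 mean), genes with at least 3 M-low peaks, the largest falls per gene list, and promoter peaks (overlapping a TSS) of those genes with the 5 largest falls and rises. The test was limma 3.58.1 (R 4.3.3) with trend, two-sided, on log2(scaled reads + 8), Benjamini-Hochberg adjusted over 73121 peaks with at least 10 in at least 3 libraries, and was tested on simulated data. Everything else was computed in Python 3.11.15. Results for 1 of the 27 gene lists and for a few genes are not reported here.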

Additional observations from a re-analysis of the deposited data

How the results depend on the processing

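The number of peaks that met the rule was 1086 with a G1 minimum of 60 and 3344 with equal totals in peaks, and 1190 to 2297 when 1 library was left out, the lowest without G1 replicate 3. It was within 1.5 times of 1831 in the other settings. Host promoters gave 160, 267 and 251 lower calls with TMM factors, loess and equal totals. These were 22.6, 37.7 and 35.5%, against 8.53, 17.7 and 16.2% of all coding promoters. With promoters taken within 1 kb of a TSS, 143 of 961 were lower. With 1 library left out there were 66 to 105 lower calls (9.24 to 14.6%), against 3.51 to 5.73% of all coding promoters. They gave 53 and 92 higher calls with loess and equal totals and 112 to 205 with 1 library left out, the lowest without M-phase replicate 2 and without M-phase replicate 3. Distal peaks near an M-low peak gave 1445 lower and 69 higher calls with equal totals (35.6% lower, against 24.7% of all peaks). They gave 413 and 48 of 1811 within 20 kb, and 1316 and 292 of 7118 within 100 kb. Of all distal peaks outside the rule, 12.2% were lower and 6.41% higher. With 1 library left out there were 549 to 796 lower calls near an M-low peak (11.6 to 17.4%), against 8.85 to 11.5% of all peaks. Searching the whole peak, which is longer, the shares of M-low and other strong distal peaks were 35 and 47.5% for AP1, 15.8 and 14.1% for FOX, 30.5 and 23.7% for RUNX, 38.6 and 36.2% for TEAD, 39.7 and 33.6% for CEBP, 22.8 and 25.2% for SOX, 4.42 and 9.25% for CTCF, 4.59 and 4.47% for the CArG box and 19.7 and 23% for the glucocorticoid receptor. In the other strong distal peaks with a log2 change within 0.5 the shares were 17.3% for AP1, 3.18% for FOX, 5.79% for RUNX, 9.60% for TEAD and 8.35% for CEBP. Linking at 50 kb or 200 kb left 367 or 778 M-low peaks with another in reach.

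Loess normalization turned at least 13 of the 92 named host promoter peaks from above to below 0, and the cause was not tested. Among them were those of ASAP1 (-0.22), ZCCHC24 (-0.26), an EFNA5 peak (-0.43), a SOX6 peak (-0.45) and a second BBS9 peak (-0.66). With the replicate number as a block, host promoters gave 102 lower (14.4%) and 176 higher calls (24.9%), against 5.82 and 48.2% of all coding promoters. Near distal peaks then gave 865 (21.3%) and 161 (3.97%), against 13.8 and 14.9% of all peaks. Deviations of same-numbered libraries correlated at -0.0101 to 0.0284, so the numbers were not taken to pair samples. The count-model alternatives were not run, because whole reads could not be recovered from the scaled values of all libraries. Absolute depth is unknown from scaled values, and 3 libraries a group limit the tests.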
